A study of Mus musculus with 12 samples.

Results

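Neurexins, neuroligins and leucine-rich repeat transmembrane proteins (LRRTMs) are cell surface proteins that join the 2 sides of a synapse. The genes described here were the rows of the deposited expression table with the symbols Nrxn2, Nrxn3, Nlgn1, Nlgn2, Nlgn3, Lrrtm1, Lrrtm2, Lrrtm3 and Lrrtm4. All 9 were found among the 32494 genes listed, and all 9 were among the 15359 genes that reached the mean level required for a test. RNA was sequenced from the hypothalamus of 12 male mice. Every mouse carried floxed Smc3 alleles and received tamoxifen, and the hypothalamus was collected 5 weeks later. The labels give the mice as 8 weeks old, and the step this age refers to is not stated. The 7 mice labelled WT lacked the transgene Camk2a-cre/ERT2, and the 5 mice labelled cKO carried it. The titles of all 12 samples, cKO included, also hold the word control, whose meaning the labels do not give. That transgene makes a tamoxifen-activated recombinase under the promoter of Camk2a, which is active mainly in excitatory neurons of the forebrain, so only some of the cells in a hypothalamus could recombine. The product of Smc3 is part of cohesin, a ring-shaped complex that encircles DNA and forms loops. The p-values set the group difference against the spread between these mice, taken as independent. The labels do not say whether mice shared a litter or a processing batch, so that independence is not assured.

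Neurexins sit in the presynaptic membrane and are made in long (alpha) and short (beta) forms from separate promoters. Neuroligins sit opposite them in the postsynaptic membrane, where neuroligin 1 is found mainly at excitatory synapses, neuroligin 2 mainly at inhibitory synapses and neuroligin 3 at either kind. The LRRTMs are a second family of postsynaptic neurexin ligands and are found at excitatory synapses. In the hypothalamus, as elsewhere in the brain, these proteins shape how glutamate and GABA synapses are built and maintained.

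WT 1 was the deepest library, at 68.7 M reads, and the other 11 had 17.1 to 24.0 M. Smc3, the floxed gene, was higher, not lower, in the libraries labelled cKO. It was at 76.8 to 85.7 CPM (reads scaled to a common library total) in the libraries labelled WT and at 116 to 144 CPM in those labelled cKO, or 0.67 on the log2 scale (SE 0.05, limma adjusted p-value 3.06e-05). Counts over a whole gene do not show recombination, and whether the labels hold was not tested. Every direction below therefore refers to the libraries labelled cKO. All 13 hypothalamic marker genes were tested, and only Nr5a1 was at 0 in any library. Their summed level was far lower in WT 4 (94.2 CPM), WT 5 (75.9), cKO 12 (177) and cKO 13 (244) than in the other 8 libraries, which ran from 391 to 771 CPM. The same 4 libraries had the highest sums of 8 oligodendrocyte markers, at 8893 to 10190 CPM against 4211 to 7108 CPM. The log2 differences, ratios and counts of called genes were therefore also computed in the 8 libraries alone, a choice made after seeing the data. The 11 thalamic markers summed to 768 to 1633 CPM in the libraries labelled WT and to 439 to 962 CPM in those labelled cKO, and 4 of the 11 fell while 0 rose. The 8 pan-neuronal markers summed to 4881 to 5528 CPM against 5561 to 6196 CPM, and 3 of the 8 rose while 0 fell. These ranges did not overlap, so a covariate made from these markers cannot be fully told apart from the group. Of 5 markers of oligodendrocyte precursors, which summed to 202 to 279 CPM against 239 to 295 CPM, 3 rose and 0 fell. Of the 13 hypothalamic markers 1 rose and 0 fell. Differences were positive for 10 of them, with a median of 0.53 on the log2 scale. Over all tested genes 6.54% rose and 7.6% fell. In bulk tissue, fewer cells of a type and less RNA per cell cannot be told apart.

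Most of the 9 genes differed little between the groups. Nlgn1 was higher in the libraries labelled cKO and was the only 1 of the 9 past an adjusted p-value of 0.05, against 14.1% of all tested genes. In that direction the count was 1 of 9 against 6.54%, and 0 of 9 were lower against 7.6%. Lrrtm1 and Lrrtm2 had the largest negative differences, with changes in mean level of -19.1% and -14.1%, but neither passed the test. The median log2 fold change of the 9 genes was -0.07, against 0.01 over all tested genes, and 6 of the 9 values were negative. The group ranges overlapped in all 9 genes, so 0 of 9 had separate ranges, against 6.73% of all tested genes. At an unadjusted p-value under 0.05 there were 3 of 9 (Nlgn1, Lrrtm1 and Lrrtm2), against 31.1% of all tested genes. The authors' deposited table gave a false discovery rate (FDR) under 0.05 to 0 of the 9, against 4.94% of the genes listed in it. In the authors' deposited table Nlgn1 came closest, with an FDR of 0.0547.

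**Figure D1:**
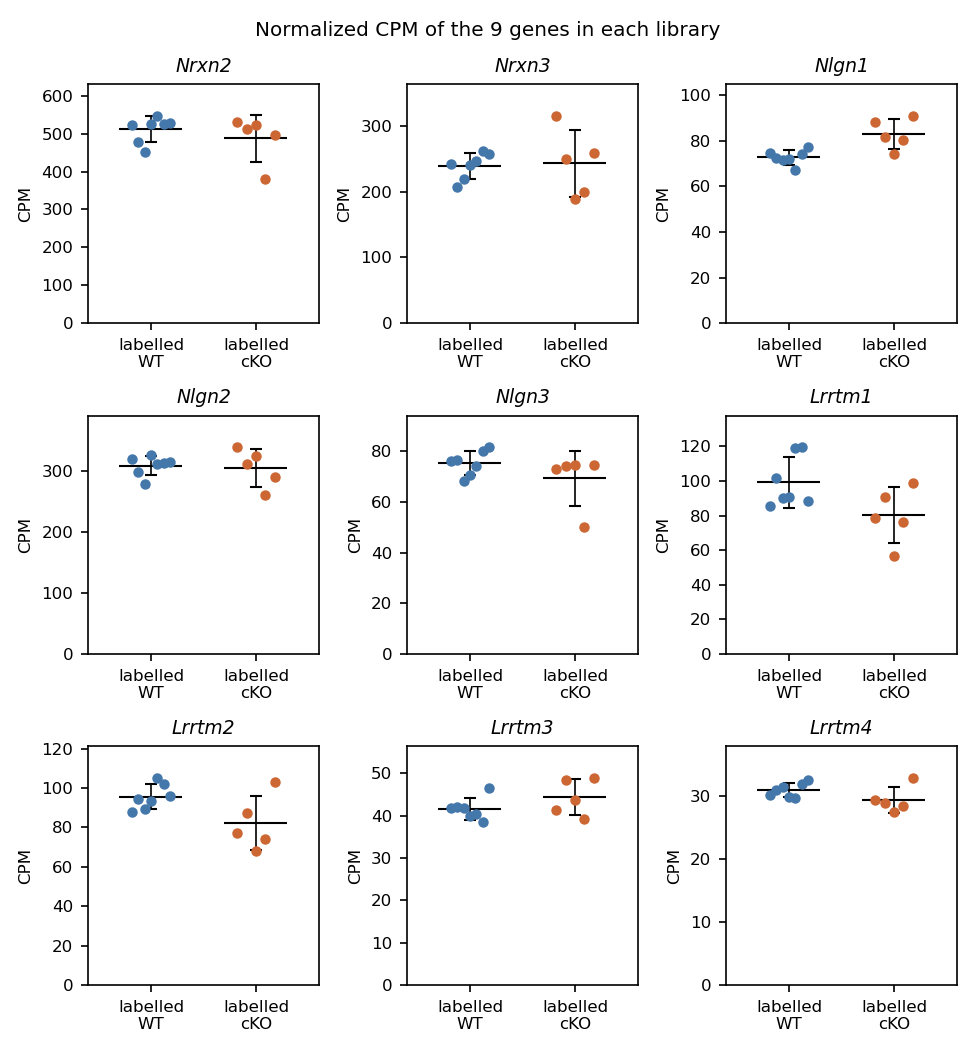
Normalized CPM (vertical axes, starting at 0) of the 9 genes in each library, with the 7 libraries labelled WT in blue and the 5 labelled cKO in orange. Horizontal lines are means and error bars are SDs; the groups overlap in every panel, and 4 of the 5 cKO points for Nlgn1 lie above all WT points.

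The promoters of 4 genes are shown because their ratios to each other are compared below: Nlgn1 against Nlgn2, and Lrrtm3 against Lrrtm4. Each is the 250 bases before an annotated start, from RefSeq on GRCm38.p6, read 5′ to 3′ on the strand of the gene. The table held 10 start sites for 6 of the 9 genes. Nlgn1 has 2 of them, of which the upstream is shown at chr3:26331910-26332159 on the minus strand. Nlgn2 is shown at chr11:69837785-69838034 on the minus strand, Lrrtm3 at chr10:64090256-64090505 on the minus strand, and the upstream of 2 starts of Lrrtm4 at chr6:80018627-80018876 on the plus strand. In GENCODE M21, the annotation used for gene positions below, Nlgn1 reaches 26332460 and Lrrtm3 reaches 64090277. By that annotation the whole Nlgn1 window and part of the Lrrtm3 window lie inside the gene. Capitals mark matches to the motifs searched on both strands.
Nlgn1: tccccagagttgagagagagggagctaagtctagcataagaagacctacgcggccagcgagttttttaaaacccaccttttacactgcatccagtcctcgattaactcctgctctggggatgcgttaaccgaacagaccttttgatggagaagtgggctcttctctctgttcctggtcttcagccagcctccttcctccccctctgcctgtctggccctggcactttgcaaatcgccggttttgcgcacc
Nlgn2: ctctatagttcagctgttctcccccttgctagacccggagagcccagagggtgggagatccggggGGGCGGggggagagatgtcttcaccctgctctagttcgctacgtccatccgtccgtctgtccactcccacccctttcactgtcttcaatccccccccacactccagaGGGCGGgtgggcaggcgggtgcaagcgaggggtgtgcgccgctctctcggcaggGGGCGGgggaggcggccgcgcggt
Lrrtm3: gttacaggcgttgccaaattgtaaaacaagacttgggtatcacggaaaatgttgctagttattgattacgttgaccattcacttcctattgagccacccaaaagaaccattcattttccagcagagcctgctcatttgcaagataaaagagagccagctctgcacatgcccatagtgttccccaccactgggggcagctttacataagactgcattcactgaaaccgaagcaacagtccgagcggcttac
Lrrtm4: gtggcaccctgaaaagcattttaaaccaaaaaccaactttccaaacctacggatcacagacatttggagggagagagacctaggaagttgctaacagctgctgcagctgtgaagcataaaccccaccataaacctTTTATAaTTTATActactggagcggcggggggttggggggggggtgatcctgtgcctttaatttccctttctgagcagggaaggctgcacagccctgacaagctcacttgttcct
The motifs were the GC box GGGCGG (in 32.7% of 32851 promoter windows of the same length), the TATA box TATAAA (12.4%), the E-box CACGTG (6.02%), the cAMP response element TGACGTCA (1.55%) and the core of the motif of CTCF, a DNA-binding partner of cohesin (2.07%). The matches did not overlap one another. The Nlgn2 window held 3 GC boxes, all on the strand of the gene, and had a GC content of 67.6%, against a median of 52.4% over all windows. The Nlgn1 window had 53.6% GC and no match to these letters. The Lrrtm4 window held 2 TATA matches, both on the opposite strand, and 49.2% GC. The Lrrtm3 window had 46.0% GC and no match. A match is a description of the letters and not evidence of binding.

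The neurexins were among the more abundant of the 9 genes, and neither passed the test. Nrxn2 encodes a presynaptic receptor and lies at chr19:6418731-6544169 on the plus strand (GENCODE M21, GRCm38; the build used by the authors is not given in the sources used here). In the libraries labelled WT it ran from 451 CPM (WT 5) to 548 CPM (WT 7), with a median of 525. In those labelled cKO it was at 532 CPM (cKO 8), 513 (cKO 9), 522 (cKO 12), 379.9 (cKO 13) and 496 (cKO 14). Thus cKO 13 lay below every other library, and the remaining 4 lay within the WT range. The groups differed by -0.07 on the log2 scale (SE 0.08, 95% interval -0.24 to 0.09, limma adjusted p-value 0.557). Its sign rested on cKO 13, without which the value was 0.01 (limma adjusted p-value 0.893). When libraries were adjusted for the GC content and length of transcripts the sign also turned (0.07, limma adjusted p-value 0.399). It was likewise positive with the pan-neuronal score as a covariate (0.14, limma adjusted p-value 0.375). That score did not overlap between the groups, so score and group cannot be fully told apart, here or in the values below.

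Nrxn3, the other neurexin, spans 1612 kb at chr12:88722876-90334935 on the plus strand. It ran from 206 CPM (WT 4) to 262 CPM (WT 11) in the libraries labelled WT, with a median of 241. It was at 316 CPM (cKO 8), 249.5 (cKO 9), 189 (cKO 12), 199.8 (cKO 13) and 259 (cKO 14) in those labelled cKO. The highest and the 2 lowest of all 12 values were thus in libraries labelled cKO, and the means of 239 ± 19.8 CPM (SD, n = 7) and 243 ± 50.8 CPM (SD, n = 5) were close. On the log2 scale the difference was 0.003 (SE 0.11, 95% interval -0.23 to 0.235, limma adjusted p-value 0.991), an interval that holds changes of either sign. In the 8 libraries with higher hypothalamic markers the value was 0.13 (limma adjusted p-value 0.243). With the pan-neuronal score as a covariate it was 0.30 (unadjusted p-value 0.0417, limma adjusted p-value 0.180). Leaving out WT 4, WT 5, cKO 8, cKO 9 or cKO 14 in turn made the value negative, with -0.10 without cKO 8 as the lowest.

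Nlgn1 rose. This neuroligin, found mainly at excitatory synapses, lies at chr3:25426215-26332460 on the minus strand. In GENCODE M21 it shares 9.16% of its exonic bases with the antisense transcript A830092H15Rik, whose reads could not be told apart without strand. Nlgn1 ran from 67.1 CPM (WT 7) to 77.4 CPM (WT 15) in the libraries labelled WT, with a median of 72.7. It was at 88.2 CPM (cKO 8), 81.9 (cKO 9), 74.4 (cKO 12), 80.3 (cKO 13) and 91.1 (cKO 14) in those labelled cKO. All 5 cKO values were above the WT median and 4 were above the WT maximum, while cKO 12 lay within the WT range. The 4 marker genes of GABAergic and hypothalamic glutamatergic neurons, of which 0 passed the test, summed to 1029 to 1334 CPM in the WT group. They summed to 1629 CPM in cKO 8, 1562 in cKO 14, 1463 in cKO 9, 1197 in cKO 13 and 1152 in cKO 12, the order of Nrxn3 in these libraries and, but for cKO 8 and cKO 14 changing places, that of Nlgn1. Of the 4 markers 3 had positive differences and 1 a negative one. The GABAergic marker Slc32a1 differed by 0.43 on the log2 scale (limma adjusted p-value 0.114), and the glutamatergic marker Slc17a6 by -0.06 (0.806). The part of these markers in the values of Nrxn3 or Nlgn1 was not tested. Mean levels of Nlgn1 were 72.9 ± 3.22 CPM (SD, n = 7) and 83.2 ± 6.60 CPM (SD, n = 5), a rise of 14.2%. Its log2 fold change was 0.19 (SE 0.05, 95% interval 0.08 to 0.295, limma adjusted p-value 0.0281), which ranked 1382 by p-value among the 15359 genes. The rise was no weaker in the 8 libraries with higher hypothalamic markers, at 0.25 (limma adjusted p-value 0.0240). The test was lost without cKO 8 (0.17, limma adjusted p-value 0.0644), cKO 9 (0.19, 0.0510) or cKO 14 (0.15, 0.0686), and with the thalamic marker score as a covariate (0.22, 0.0617). The sign was positive in every setting tried.

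By a rule of likeness, 3 genes outside the 9 followed Nlgn1 most closely from library to library. After each group's mean was removed, Pearson's r over the 12 libraries was 0.916 for Pcnx4 (Spearman's rho 0.839), 0.903 for Wapl (rho 0.818) and 0.899 for Zfp786 (rho 0.916). These were picked as the highest among all tested genes and carry no test. None of the 3 was itself past the threshold between the groups, with log2 fold changes of 0.08, 0.01 and 0.03 (limma adjusted p-values 0.292, 0.918 and 0.787).

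Nlgn2 and Nlgn3 did not pass the test. Nlgn2, found mainly at inhibitory synapses, lies in 14.7 kb at chr11:69823122-69837784 on the minus strand. It ran from 278 CPM (WT 5) to 325 CPM (WT 6) in the libraries labelled WT, with a median of 312. It was at 339 CPM (cKO 8), 311 (cKO 9), 324 (cKO 12), 259.8 (cKO 13) and 290.2 (cKO 14) in those labelled cKO. The highest and the lowest of the 12 values were both in libraries labelled cKO, and the difference was -0.02 on the log2 scale (SE 0.06, 95% interval -0.15 to 0.11, limma adjusted p-value 0.864). The sign turned without cKO 13 (0.04), with the pan-neuronal score as a covariate (0.15) and when GC content and length were adjusted for (0.10), none of them past the threshold.

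Nlgn3 is an X-linked neuroligin at chrX:101299168-101325963 on the plus strand, and in GENCODE M21 it shares 41.2% of its exonic bases with Gm21986, an overlapping transcript on the same strand, so its counts are uncertain where reads could be given to either. It ran from 68.3 CPM (WT 5) to 81.7 CPM (WT 15) in the libraries labelled WT, with a median of 76.1. It was at 73.1 CPM (cKO 8), 74.0 (cKO 9), 74.4 (cKO 12), 50.0 (cKO 13) and 74.6 (cKO 14) in those labelled cKO. As with Nrxn2, cKO 13 was below every other library and the other 4 lay within the WT range, close to one another. Nlgn3 differed by -0.13 on the log2 scale (SE 0.09, 95% interval -0.33 to 0.06, limma adjusted p-value 0.337), and by -0.02 without cKO 13 (0.801). In cKO 13 the pan-neuronal markers summed to 6196 CPM and the oligodendrocyte markers to 10190 CPM, the highest of the 12 libraries for each. With the pan-neuronal score as a covariate the Nlgn3 difference was 0.08 (limma adjusted p-value 0.704), and when GC content and length were adjusted for it was -0.05 (0.672). The part of the oligodendrocyte markers was not tested.

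The balance between Nlgn2 and Nlgn1 was compared within each library, which takes out library scaling but not effects of GC content. The longest transcript had 60.7% GC for Nlgn2 and 38.9% for Nlgn1. With GC content and length adjusted for, the log2 difference was 0.10 for Nlgn2 and 0.24 for Nlgn1, and their ratio was not computed in that setting. The log2 ratio of Nlgn2 to Nlgn1 was 2.065 ± 0.09 (SD, n = 7) in the WT group against 1.86 ± 0.19 (SD, n = 5) in the cKO group, a difference of -0.21. Of the 5 cKO ratios, 4 lay below the WT range of 1.94 to 2.20, namely cKO 8 (1.93) and cKO 9 (1.91) just below it and cKO 13 (1.68) and cKO 14 (1.66) further down, and cKO 12 (2.11) was inside it. By a two-sided exact permutation test the p-value was 0.0278, or 0.0556 adjusted over the 4 ratios compared, just short of the threshold. It was past the threshold without cKO 12 (-0.27, exact permutation adjusted p-value 0.0121), without WT 5 (-0.23, 0.0476) and after quantile normalization (-0.23, 0.0379). In the other 10 of the 12 values that each left out 1 mouse it was short of the threshold. The smallest difference was -0.16, without cKO 14 (exact permutation adjusted p-value 0.145). In the 8 libraries the difference was -0.26, at the smallest exact permutation p-value those 8 allow, 0.0179 (0.0714 adjusted). Taken per kb of exon, Nlgn1 made up 7.49% to 8.78% of the 3 neuroligin transcripts in the libraries labelled WT and 7.97% to 10.6% in those labelled cKO. Nlgn2 made up 78.8% to 81.2% and 77.2% to 80.5%.

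Lrrtm1 and Lrrtm2 were lower on average in the libraries labelled cKO without passing the test, and spread more widely there. Both encode postsynaptic neurexin ligands of excitatory synapses. In GENCODE M21 each of Lrrtm1, Lrrtm2 and Lrrtm3 lies inside an alpha-catenin gene on the opposite strand (Ctnna2, Ctnna1 and Ctnna3), with 0 shared exonic bases for Lrrtm1 and Lrrtm3 and 95 for Lrrtm2. The library kit named in the labels does not mark strand, so reads of unspliced host RNA could not be told from reads of these genes. Lrrtm1, at chr6:77242689-77257791 on the plus strand, ran from 85.2 CPM (WT 1) to 119.8 CPM (WT 11) in the libraries labelled WT, with a median of 90.6. It was at 78.7 CPM (cKO 8), 90.9 (cKO 9), 56.9 (cKO 12), 76.3 (cKO 13) and 98.5 (cKO 14) in those labelled cKO. Of these 5, 3 lay below the WT minimum and the other 2 inside the WT range. Lrrtm1 differed by -0.31 on the log2 scale (SE 0.13, 95% interval -0.58 to -0.04, unadjusted p-value 0.0260, limma adjusted p-value 0.109). Without cKO 12 it was -0.20 (limma adjusted p-value 0.228), and with libraries weighted by arrayWeights -0.09 (0.546).

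Levels of thalamic markers were set beside those of Lrrtm1, a description without a test. The summed thalamic markers were highest in WT 11 (1633 CPM) and WT 7 (1409 CPM), the libraries with the highest Lrrtm1 (119.8 and 118.9 CPM), and lowest in cKO 12 (439 CPM), the library with the lowest. Other libraries did not keep this order, as thalamic markers were at 1033 CPM in WT 5 and 962 CPM in cKO 14. Lrrtm1 was at 90.2 CPM in WT 5 and 98.5 CPM in cKO 14. With the thalamic score as a covariate the Lrrtm1 value became 0.02 (limma adjusted p-value 0.863). All 11 thalamic markers had negative differences themselves, so score and group cannot be fully told apart. The part of thalamic tissue in the Lrrtm1 value was not tested. In the 8 libraries with higher hypothalamic markers the Lrrtm1 value was -0.16 (limma adjusted p-value 0.434).

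Lrrtm2 showed the same order of libraries at both ends of the cKO group. It ran from 87.7 CPM (WT 1) to 105 CPM (WT 7) in the libraries labelled WT, with a median of 94.6. It was at 77.2 CPM (cKO 8), 87.2 (cKO 9), 68.2 (cKO 12), 74.2 (cKO 13) and 103 (cKO 14) in those labelled cKO. Here 4 of the 5 lay below the WT minimum, and cKO 14 lay near the WT maximum. Lrrtm2 differed by -0.23 on the log2 scale (SE 0.09, 95% interval -0.41 to -0.05, unadjusted p-value 0.0178, limma adjusted p-value 0.0865). Without cKO 14 it was -0.315 and past the threshold (limma adjusted p-value 0.0176). With the thalamic score as a covariate it was -0.06 (limma adjusted p-value 0.684), and in the 8 libraries -0.125 (0.378). It was -0.09 with arrayWeights (limma adjusted p-value 0.337) and -0.15 with the pan-neuronal score (0.526). The log2 ratio of Lrrtm1 to Lrrtm2 differed by -0.08 between the groups (two-sided exact permutation p-value 0.293, adjusted 0.391).

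Lrrtm3 and Lrrtm4 were the least abundant LRRTMs and the steadiest. Lrrtm3, at chr10:63928472-64090277 on the minus strand, ran from 38.5 CPM (WT 11) to 46.4 CPM (WT 15) in the libraries labelled WT, with a median of 41.7. It was at 41.3 CPM (cKO 8), 48.3 (cKO 9), 43.7 (cKO 12), 39.2 (cKO 13) and 48.9 (cKO 14) in those labelled cKO, so 2 of 5 were above the WT maximum. Lrrtm3 differed by 0.09 on the log2 scale (SE 0.06, 95% interval -0.04 to 0.22, limma adjusted p-value 0.349). It was 0.05 without cKO 14, 0.06 without cKO 9 and 0.15 in the 8 libraries, none past the threshold. Lrrtm4, whose product also binds heparan sulfate proteoglycans, spans 791 kb at chr6:80018877-80810143 on the plus strand. In GENCODE M21 it shares 25.1% of its exonic bases with the antisense transcript Gm4409, whose reads could not be told apart without strand. It ran from 29.7 CPM (WT 7) to 32.4 CPM (WT 15) in the libraries labelled WT, with a median of 30.9. It was at 29.2 CPM (cKO 8), 28.9 (cKO 9), 27.3 (cKO 12), 28.3 (cKO 13) and 32.8 (cKO 14) in those labelled cKO, so 4 of 5 were below the WT minimum and 1 was above the maximum. Lrrtm4 differed by -0.07 on the log2 scale (SE 0.05, 95% interval -0.175 to 0.03, limma adjusted p-value 0.307). It was -0.11 without cKO 14 and -0.02 in the 8 libraries, neither past the threshold.

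Lrrtm3 and Lrrtm4 had small differences of opposite sign. Over all 12 libraries their ratio had the smallest exact permutation p-value of the 4 ratios, but not the largest difference. In the 8 libraries with higher hypothalamic markers its p-value was not the smallest. Its log2 value was 0.41 ± 0.07 (SD, n = 7) in the WT group against 0.58 ± 0.11 (SD, n = 5) in the cKO group, a difference of 0.16. The ratios of cKO 9 (0.72), cKO 12 (0.66) and cKO 14 (0.56) were above all WT ratios, and cKO 13 (0.45) and cKO 8 (0.485) lay within the WT range of 0.27 to 0.51. The two-sided exact permutation p-value was 0.00758, or 0.0303 adjusted over the 4 ratios. It was not past the threshold in 6 of the 12 values that each left out 1 mouse. Those were without WT 4, WT 6, WT 7 or cKO 14 (differences of 0.16 to 0.166, exact permutation adjusted p-value 0.0606), without WT 11 (0.14, 0.0606) and without cKO 9 (0.125, 0.0788). In the 8 libraries the difference was 0.18 (exact permutation p-value 0.0536, adjusted 0.0714). The remaining ratio, of Nrxn2 to Nrxn3, differed by -0.08 (two-sided exact permutation p-value 0.492, also 0.492 adjusted). In the 8 libraries it differed by -0.18 (exact permutation p-value 0.0357, adjusted 0.0714). Without cKO 12, whose ratio of 1.46 was above all others, the difference was -0.19 and past the threshold (exact permutation adjusted p-value 0.0182).

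**Figure D2:**
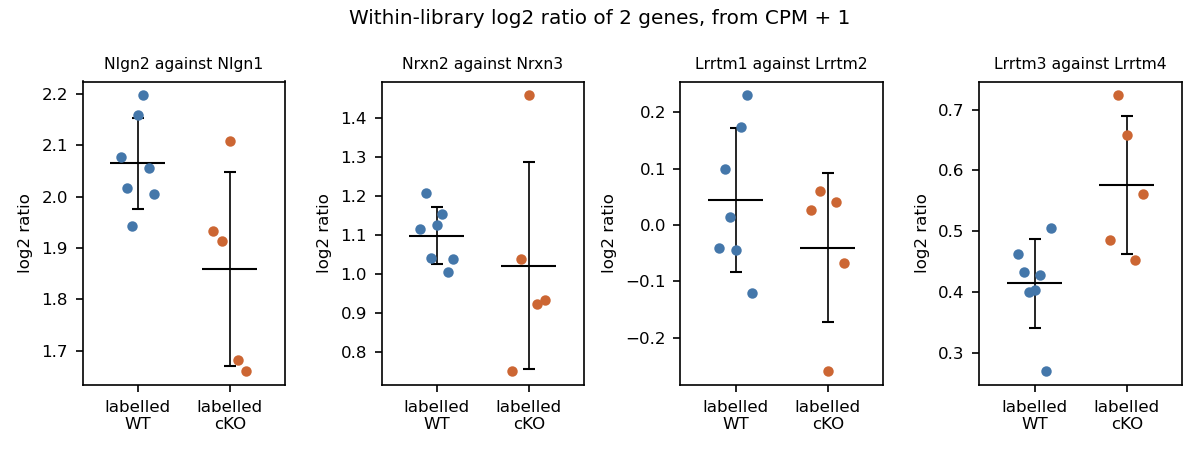
Log2 ratio of CPM + 1 between 2 genes within each library (vertical axes, not starting at 0), with the 7 libraries labelled WT in blue and the 5 labelled cKO in orange, means as lines and SDs as error bars. The Lrrtm3 to Lrrtm4 ratio is higher by 0.16 and the Nlgn2 to Nlgn1 ratio lower by 0.21 in the libraries labelled cKO, and the groups overlap in each panel.

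**Figure D3:**
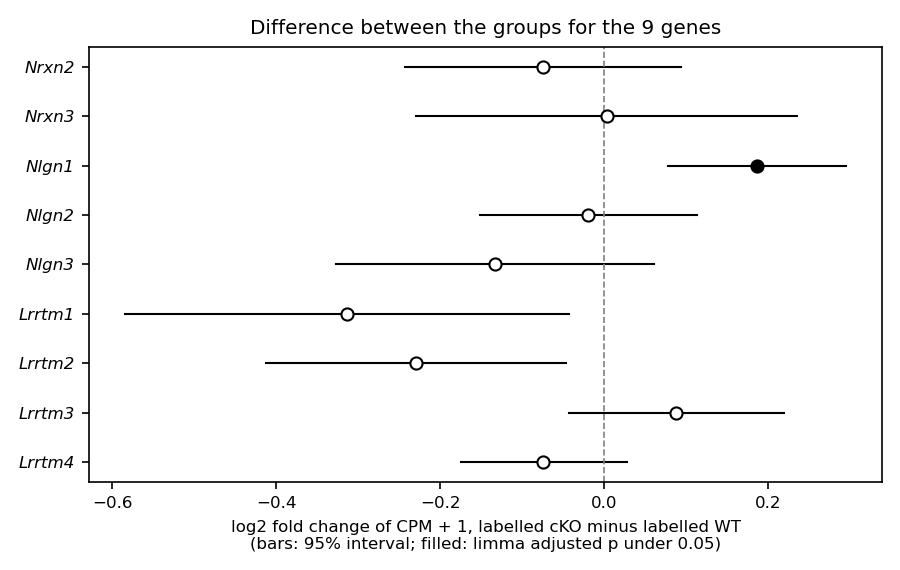
Limma log2 fold change of CPM + 1 (horizontal axis, libraries labelled cKO minus those labelled WT) of the 9 genes, with 95% intervals as bars and a filled point where the adjusted p-value is under 0.05. The Nlgn1 point, at 0.19, is the filled one; the intervals of Lrrtm1 and Lrrtm2 lie below 0, but their adjusted p-values of 0.109 and 0.0865 miss the threshold.

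The host genes were compared with the LRRTMs they contain. Ctnna2, the alpha-catenin of neurons, was at 135 to 163 CPM in the libraries labelled WT and 125 to 155 CPM in those labelled cKO, a difference of -0.105 on the log2 scale (SE 0.06, limma adjusted p-value 0.211) beside the -0.31 of Lrrtm1. Ctnna1 had a value of 0.05 (SE 0.04, limma adjusted p-value 0.488) beside the -0.23 of Lrrtm2. Ctnna3 was low, at 1.39 to 5.04 CPM over the 12 libraries, with -0.09 (SE 0.19, limma adjusted p-value 0.797). None of the 3 passed the test.

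Levels of different genes were compared per kb of exon, using the union of all annotated exons in GENCODE M21. Nlgn2 was highest in the libraries labelled WT, at 53.3 ± 2.72 CPM per kb (SD, n = 7). Nrxn2 (37.0 ± 2.46) and Lrrtm1 (32.7 ± 4.82) followed with overlapping ranges, then Nrxn3 (18.9 ± 1.57) and Lrrtm2 (15.9 ± 1.06), which also overlapped. Lrrtm3 (9.77 ± 0.593) and Nlgn3 (8.12 ± 0.515) were next and did not overlap. Nlgn1 (5.43 ± 0.240) and Lrrtm4 (5.02 ± 0.171) were lowest and overlapped. The order in the libraries labelled cKO was the same. The order depended on the length used. Per kb of the longest transcript in the WT group, Nrxn2 (76.7 CPM per kb) was above Nlgn2 (55.3), and Lrrtm4 (6.96) above Nlgn1 (6.17). With that length the order in the cKO group differed, with Nlgn1 (7.04) above Lrrtm4 (6.61) and Nrxn3 (30.6) above Lrrtm1 (27.1).

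The spread between libraries was compared as the SD over the mean. This coefficient of variation was 3.40% to 14.7% over the libraries labelled WT and 7.14% to 20.9% over those labelled cKO. It was higher in the cKO group for 9 of the 9 genes, against 59.6% of all tested genes, a description without a test. For Nrxn2 and Nlgn3 this rested on cKO 13, which lay below every other library. The remaining cKO libraries lay within the WT range for both genes. The residual SD on the log2 scale had a median of 0.15 over the 9 genes and 0.12 over all tested genes, and 4 of the 9 were below that. The fewest reads of any of the 9 genes in any library were 555 (Lrrtm4), and the part of counting error in the spread was not tested. Relative to the WT mean, cKO 13 was low in Nlgn3 (-0.58 on the log2 scale), Nrxn2 (-0.43), Lrrtm1 (-0.36) and Lrrtm2 (-0.36). In cKO 12 the low genes were Lrrtm1 (-0.78), Lrrtm2 (-0.48) and Nrxn3 (-0.33). In cKO 8 Nrxn3 was high (0.41) while Lrrtm1 (-0.32) and Lrrtm2 (-0.30) were low.

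**Figure D4:**
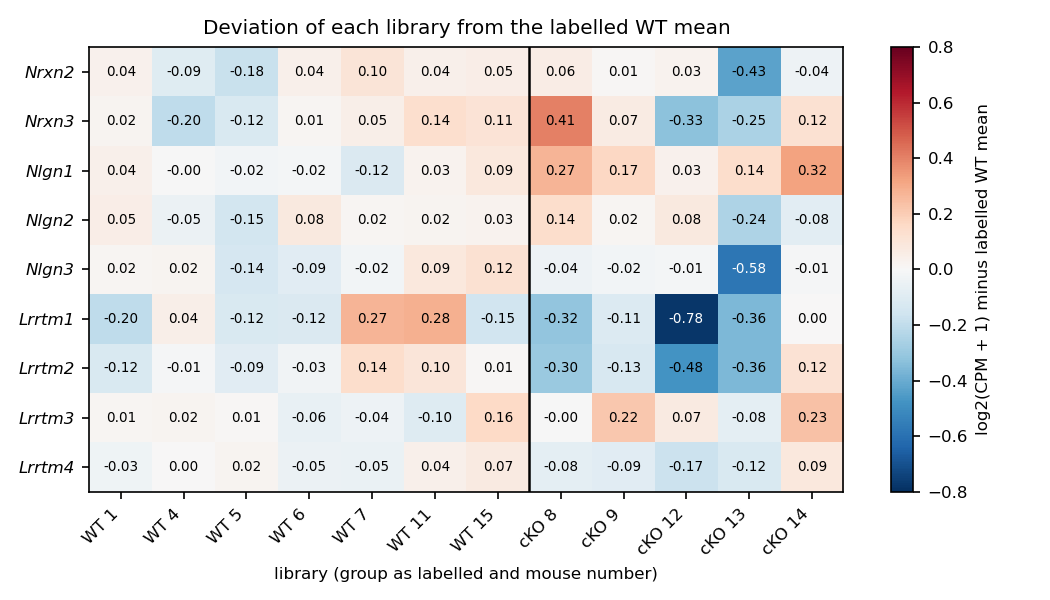
Log2(CPM + 1) of each gene (rows) in each library (columns) minus the mean of the 7 libraries labelled WT, as colour and number; the vertical line divides the groups. The deepest blue cells are Lrrtm1 in cKO 12 (-0.78) and Nlgn3 in cKO 13 (-0.58), and Nlgn1 is at or above 0.03 in all 5 libraries labelled cKO.

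Other genes of the same adhesion system were examined through 6 lists that together hold 86 genes, of which 84 were tested. By limma 12 of the 84 (14.3%) were past an adjusted p-value of 0.05, against 14.1% of all tested genes, of which 4 rose and 8 fell in the cKO group. Their median log2 fold change was -0.04.

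The counts by list below stand against 6.54% of all tested genes higher and 7.6% lower, and nothing particular to a list is read from them. Among 18 tested neurexin ligands, 0 rose and 2 fell. Cbln1, a secreted protein that links neurexins to delta glutamate receptors, was at 143 ± 15.7 CPM (SD, n = 7) in the WT group and 97.9 ± 14.9 CPM (SD, n = 5) in the cKO group. That is -0.55 on the log2 scale (SE 0.10, limma adjusted p-value 0.00594), with separate ranges. Clstn2, a calsyntenin, fell by 0.53 on the log2 scale (SE 0.11, limma adjusted p-value 0.00978). Of 5 genes for proteins that block, cut or link neuroligins and neurexins, 1 fell. That was Igsf9b, an adhesion protein of inhibitory synapses that is linked to neuroligin 2, at 96.3 ± 11.6 CPM (SD, n = 7) in the WT group and 65.4 ± 6.45 CPM (SD, n = 5) in the cKO group, or -0.55 on the log2 scale (SE 0.08, limma adjusted p-value 0.00334). These 3 genes kept their side of the threshold in every setting tried. None of the 3 Khdrbs genes, which regulate alternative splicing of neurexins, passed the test.

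Of 33 other synaptic organisers, 3 rose and 3 fell. Slitrk6 (-0.85, limma adjusted p-value 0.0210), Ntng1 (-0.525, 0.0287) and Flrt3 (-0.35, 0.0428) fell, and Slitrk5 (0.27, 0.0130), Lrrc4 (0.215, 0.0119) and Lrrc4c (0.19, 0.0395), the last 2 being netrin-G ligands, rose. With the thalamic score as a covariate the values were -0.35 for Slitrk6 (limma adjusted p-value 0.189) and -0.16 for Ntng1 (0.265), both closer to 0 and short of the threshold. Lrrc4 (0.21, limma adjusted p-value 0.0620), Lrrc4c (0.17, 0.181) and Slitrk5 (0.155, 0.121) were short of it too, Lrrc4 at nearly the same value as without the covariate. Of the 6, Flrt3 was past it (-0.53, 0.0205). With the pan-neuronal score as a covariate Slitrk5 was past it (0.36, limma adjusted p-value 0.0274), and Slitrk6 (-0.95, 0.0961), Ntng1 (-0.67, 0.0776), Flrt3 (-0.46, 0.0991), Lrrc4 (0.17, 0.161) and Lrrc4c (0.17, 0.257) were not. Of 10 presynaptic scaffolds, 0 passed. Of 16 postsynaptic scaffolds, Dlg1 rose (0.20, limma adjusted p-value 0.00847), and Shank1 (-0.41, 0.0144) and Shank3 (-0.44, 0.0410) fell. With the thalamic score as a covariate none of the 3 was past the threshold, at 0.16 for Dlg1 (limma adjusted p-value 0.0703), -0.305 for Shank1 (0.117) and -0.12 for Shank3 (0.441). With the pan-neuronal score Dlg1 was past it (0.25, limma adjusted p-value 0.0274), and Shank1 (-0.32, 0.183) and Shank3 (-0.43, 0.219) were not. When GC content and length were adjusted for, Shank3 (-0.29, limma adjusted p-value 0.154) and Lrrc4c (0.15, 0.0759) were short of the threshold. The other organisers and scaffolds named here were past it, with Shank1 smaller at -0.24 (limma adjusted p-value 0.0357). Over the 12 repeats with a mouse left out, Shank3 and Lrrc4c were short of the threshold in 8 each, Flrt3 in 10 and Ntng1 in 4. These 4 and Slitrk6 were also short of it in the 8 libraries with higher hypothalamic markers (limma adjusted p-values 0.0642 to 0.239). There the values of Slitrk6 (-0.88), Flrt3 (-0.36) and Lrrc4c (0.24) were as large as in all 12 libraries or larger, and those of Ntng1 (-0.43) and Shank3 (-0.31) were smaller. Gephyrin and the other 12 scaffolds of that list did not pass.

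**Figure D5:**
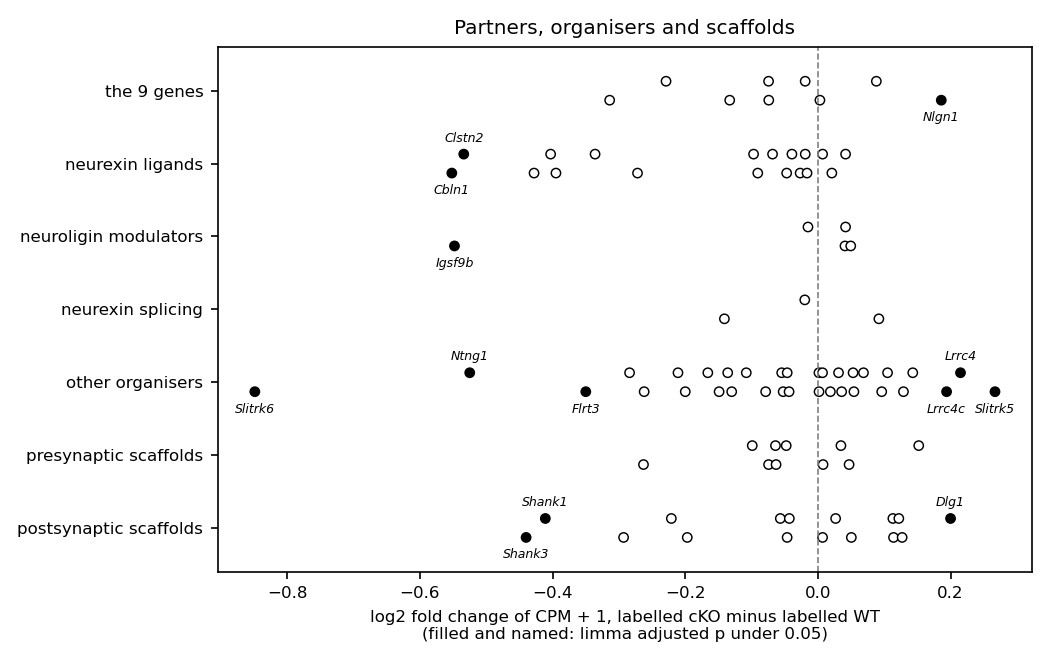
Limma log2 fold change of CPM + 1 (horizontal axis, libraries labelled cKO minus those labelled WT) of the 9 genes and of the tested genes of 6 lists (rows), each point a gene, filled and named where the adjusted p-value is under 0.05. Of the 84 list genes 12 are filled, 8 to the left of 0 and 4 to the right.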

How the data were processed

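The authors deposited normalized CPM for each gene in 12 libraries, and a second table with the log2 fold changes, p-values and FDR of their own comparison. STAR 2.7.9a, SAMtools, Subread and featureCounts are named in the submitters' processing notes. Genome build, annotation and strand setting are not given in the sources used here. The deposited CPM values were whole multiples of 1 step per library for 100% of values (within 0.01 read), so whole reads were recovered. Columns were matched to samples by name, with 0 left unused.

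CPM values are not counts, so genes were tested with limma (3.58.1, R 4.3.3; lmFit, eBayes with trend) on log2(CPM + 1). The 15359 genes averaging 1 CPM or more entered, with Benjamini-Hochberg adjustment over all of them and a threshold of 0.05. Fold changes on this scale understate changes of low genes. Ratios of 2 genes were compared by two-sided exact permutation of the mice (792 splits, smallest p-value 0.00126). On simulated counts for this comparison, with changes of 1 log2 unit, limma recovered 194 of 194 changed genes among 15355 tested, with 18 false calls. The simulated counts had the same dispersion for every gene and no differences in tissue composition between libraries. They therefore say nothing of how well the smaller differences described above would be recovered. Marker scores averaged log2(CPM + 1) over each list. The pan-neuronal score was higher in every library labelled cKO than in any labelled WT. As a covariate it therefore cannot be fully told apart from the group. Exon lengths and GC content came from GENCODE M21, which matched 94.5% of tested genes, and their adjustment used splines with 4 degrees of freedom.

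Alternatives were a pseudocount of 0.1, all genes above 0, a minimum mean of 5 CPM, median centring, quantile normalization, robust eBayes, arrayWeights, count tests on recovered reads (edgeR 4.0.16 quasi-likelihood, DESeq2 1.42.0), thinning of WT 1 to 21.7 M reads, the thalamic or pan-neuronal score as a covariate, adjustment for GC content and length, leaving out each mouse, and, chosen after seeing the data, the 8 libraries with higher hypothalamic markers. The 9 genes and the lists were chosen with earlier results of these data known. Named outside the 9 were Smc3, the alpha-catenin genes, list genes past the threshold (up to 4 per list; Lrrc4 and Lrrc4c were named after their values were seen) and the 3 genes most like Nlgn1. A level of 3 reads was 0.0436 to 0.178 CPM, which covers counting error only.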

Additional observations from a re-analysis of the deposited data

Results flagged for a closer look

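Single libraries standing apart were looked for in 30 groups of values (the 9 genes, Smc3, the 4 ratios and depth, in each group of mice), and 3 were found, where chance gives about 1.5. Nrxn2 was at 380.0 CPM in cKO 13, below the next cKO library at 496 CPM. Nlgn3 was at 50.0 CPM in cKO 13, below the next at 73.1 CPM. WT 1 had 68.7 M reads, above the next WT library at 24.0 M.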

How the results depend on the processing

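No paired analysis was possible because the groups share no mouse numbers. Past the threshold were 2172 genes (46.2% higher), 5126 with arrayWeights, 918 with the thalamic score, 1169 with the neuronal score, 2098 by edgeR, 2747 by DESeq2, and 1158 (without WT 1) to 2302 with a mouse left out. The share higher was 56.6% after median centring and 60.5% after adjustment for GC content and length. Smc3 kept its direction and call in every setting run, from 0.638 to 0.747. Nlgn1 was 0.16 to 0.286 over the settings that kept all mice or the 8 libraries, and missed the threshold with the thalamic score (0.218, limma adjusted p-value 0.0617). With a mouse left out it was 0.153 to 0.225 (limma adjusted p-values 0.0125 to 0.0686). Signs turned, past the threshold in no such setting, for Nrxn2 (0.143 with the neuronal score, 0.0672 with GC content and length, -0.108 to 0.0134 with a mouse left out), Nrxn3 (-0.00519 after quantile normalization, -0.0974 to 0.0858) and Nlgn2 (0.148, 0.101, -0.0593 to 0.0369). They also turned for Nlgn3 (0.0847 with the neuronal score), Lrrtm1 (0.0207 with the thalamic score), Ctnna1 (-0.0421, neuronal), Ctnna2 (0.0094, thalamic) and Ctnna3 (-0.261 to 0.0743 with a mouse left out). Lrrtm2 was -0.315 to -0.167 with a mouse left out. Lrrtm3 (0.0516 to 0.13 with a mouse left out) and Lrrtm4 (-0.114 to -0.0502) kept their signs and passed in no setting run. The Nlgn2 to Nlgn1 difference was -0.228 after quantile normalization (past the threshold) and -0.268 to -0.156 with a mouse left out, that of Nrxn2 to Nrxn3 -0.187 to -0.0101, and that of Lrrtm3 to Lrrtm4 0.125 to 0.193, or 0.177 in the 8 libraries (not past it). List genes past the threshold numbered 25 with arrayWeights, 5 with the thalamic score and 8 to 14 with a mouse left out. A minimum of 5 CPM left no value for Ctnna3. Why these values moved was not tested. The fewest reads of any of the 9 genes were 555, and how far depth limits their precision was not tested.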
